A study of Mus musculus with 22 samples.

Results

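This account covers 10 transcription factors grouped as pluripotency factors, Pou5f1, Nanog, Sox2, Klf4, Klf5, Klf17, Esrrb, Zfp42, Tfcp2l1 and Sall4. They were taken by symbol, and each symbol had 1 row among the 22592 gene symbols of every table. RNA was sequenced by the Smart-seq2 protocol in 22 libraries of mouse oocytes and preimplantation embryos. Setd2, the gene removed in most of the mutants, encodes the enzyme that places the H3K36me3 mark of transcribed gene bodies on histone H3. Growing oocytes (20-30 μm) came from females at postnatal day 7 and are labelled Setd2+/- for the control and Setd2-/- for the knockout. Full-grown oocytes, zygotes collected 30 h after hCG and embryos labelled 48 h came from 8-week-old females given PMSG and hCG, the hormones used for superovulation, and carry only the labels Setd2_Con and Setd2_KO. The series describes that knockout as maternal, so zygotes and 48 h embryos came from mutant or control eggs. The 48 h controls are labelled 2-cell and the 48 h knockouts 1-cell, so genotype and cell stage cannot be told apart in that comparison. In the spindle-transfer embryos, the spindle and chromosomes of an egg were moved into an enucleated egg of the other genotype, sperm was injected, and the embryo was cultured to the 8-cell stage. For these embryos too the age given for the females is 8 weeks. They are labelled Setd2+/- and Setd2-/-, and the labels do not say whether that is the genotype of the spindle donor or of the recipient egg. Each of these groups had 2 libraries. Full-grown oocytes of a Dnmt3l control and a Dnmt3l knockout, a regulator of DNA methylation in oocytes, came from 8-week-old females. They had 1 library each, and the columns of that pair are named as merged. The allele, the strain and any Cre driver are not given in the sources used here. Nothing in the labels says whether the libraries of a group came from separate animals, so p-values measure the spread between libraries, which may be technical.

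Values are FPKM, fragments scaled to transcript length in kilobases and to M (mega) mapped fragments, so that levels of different genes can be compared per length. The libraries held about 3.08 to 22.6 M fragments, estimated from the smallest steps between low values, with the fewest in zygotes (3.08 to 3.42 M). At these depths 1 fragment of Nanog was worth 0.02 to 0.15 FPKM and 1 fragment of Sox2 was worth 0.021 to 0.16 FPKM. Setd2 itself was at 0.927 and 0.968 FPKM in knockout full-grown oocytes against 4.35 and 4.75 in controls, at 1.30 and 1.73 against 8.85 and 12.1 in zygotes, and at 1.42 and 1.74 against 43.0 and 53.2 at 48 h. In growing oocytes it was at 3.21 and 3.67 against 4.33 and 6.68, and in 8-cell embryos at 15.4 and 18.1 under the knockout label against 17.1 and 18.2. Dnmt3l was at 25.0 FPKM in the library labelled Dnmt3l knockout against 31.7 in its control. Which exons are deleted is not given in the sources used here, so these whole-gene values are a limited check of the labels.

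Pluripotency is the capacity of a cell to form every tissue of the embryo. Pou5f1 (Oct4), Sox2 and Nanog form the core of a network of transcription factors that activate one another's genes in the inner cell mass and in embryonic stem cells. The zinc finger factors Klf4 and Klf5, the orphan nuclear receptor Esrrb, the grainyhead-like factor Tfcp2l1 and the spalt-like zinc finger factor Sall4 support that network. Zfp42 (Rex1) is widely used as its marker. Klf17 is a further zinc finger factor of the KLF family. Several of these messages are stored in the oocyte. Maternal RNA is degraded after fertilization while the embryonic genome is switched on, mainly at the 2-cell stage in the mouse.

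In control full-grown oocytes Klf17 led with 155 ± 5.49 FPKM (mean ± SD, n = 2 libraries here and below), followed by Sall4 at 109 ± 23.6, Pou5f1 at 23.5 ± 14.8 and Esrrb at 9.41 ± 0.633. These 4 factors did not overlap one another in their library values. Klf4 (0.631 ± 0.362 FPKM) and Tfcp2l1 (0.595 ± 0.0587) overlapped, Zfp42 was at 0.273 ± 0.133, Klf5 at 0.0269 ± 0.038, and Nanog and Sox2 were at 0 in both libraries. Klf17 and Sall4 lay at the 97.3 and 96.0 percentile of all genes in these oocytes.

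Growing oocytes had another order. Pou5f1 was highest in their controls (31.8 and 36.5 FPKM), then Sall4 (24.3 and 18.2), Zfp42 (7.21 and 11.1) and Tfcp2l1 (2.28 and 2.14). Klf17, the leading factor of full-grown oocytes, was at only 0.653 and 0.199 FPKM, and Esrrb was at 0 in all 4 growing-oocyte libraries. Klf5 (1.65 and 0.332 FPKM), Klf4 (1.87 and 0.0593) and Klf17 overlapped in part, Nanog was at 0 and 0.170, and Sox2, like Esrrb, was at 0 in all 4. The growing and full-grown oocytes stand in tables that may have been normalized separately, so these levels are set side by side without a test.

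**Figure D1:**
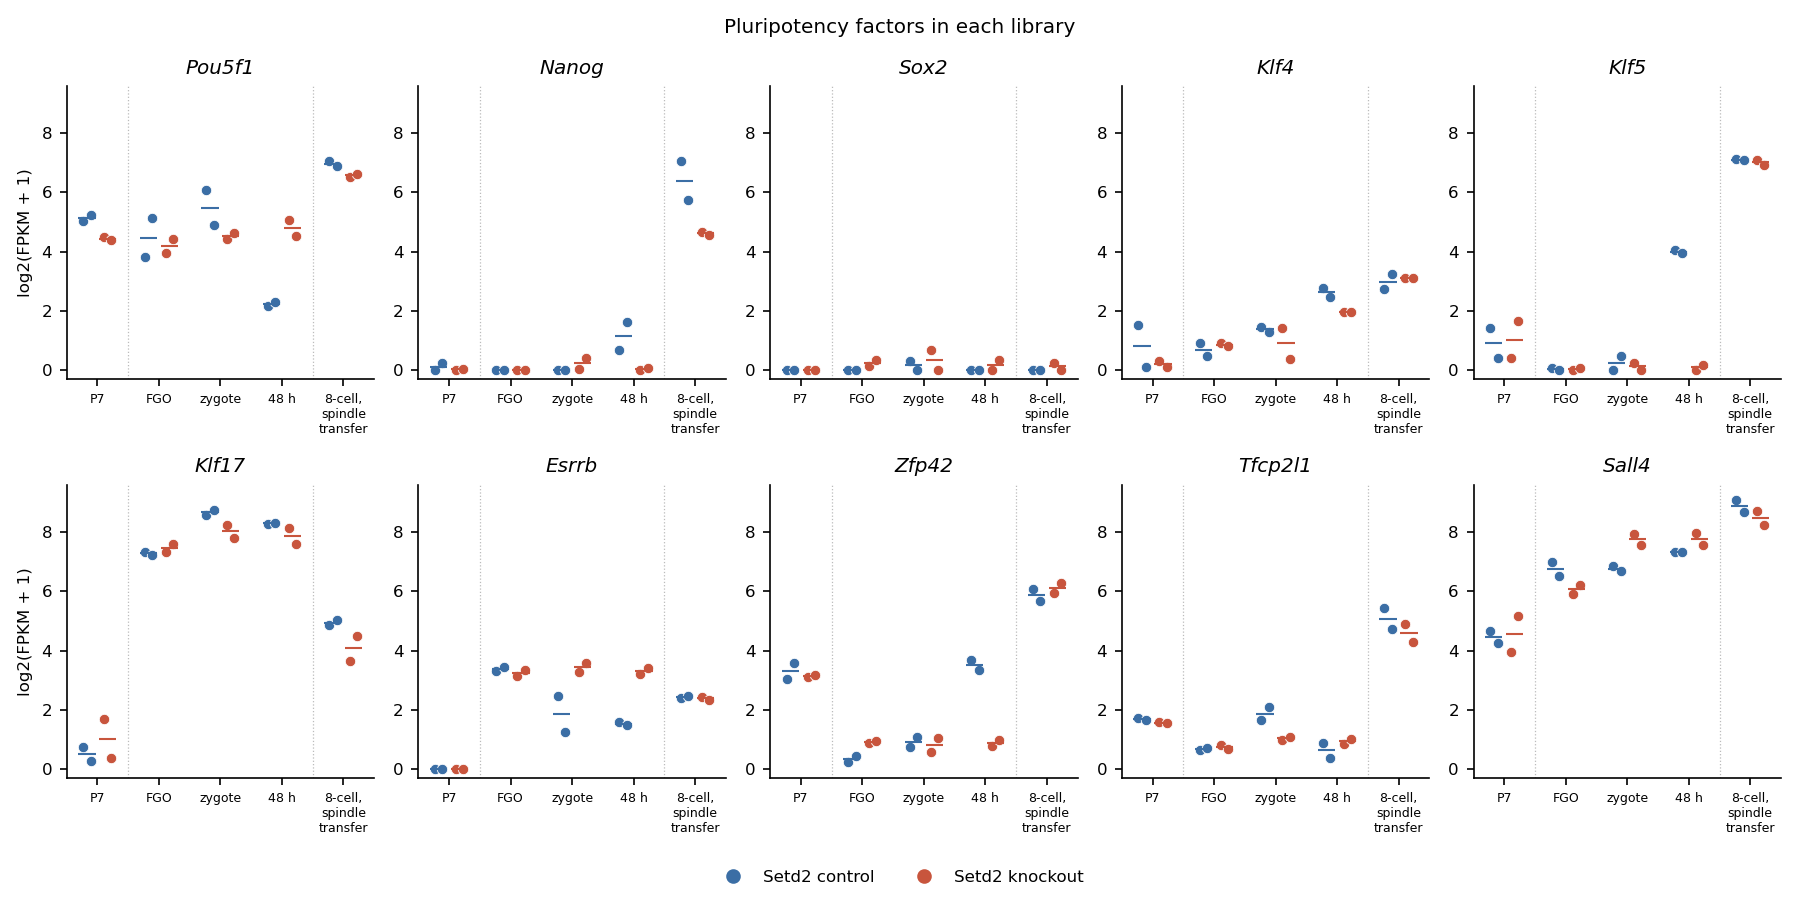
Each panel is 1 factor. Points are libraries, on a scale of log2(FPKM + 1), bars are the mean of 2 libraries, blue is control and red is Setd2 knockout, and dotted lines separate tables that may have been normalized separately. Klf17, Sall4, Pou5f1 and Esrrb stand above 0 from the full-grown oocyte on, Klf5 and Zfp42 are high in the 48 h controls and low in the 48 h knockouts, and Sox2 is at or near 0 throughout.

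Before fertilization no factor passed the test of the Setd2 knockout. In growing oocytes 0 of the 5 factors that passed the low-value filter (1 FPKM or more in 2 or more of a table's libraries) were called, where 0.0834% of all 10794 genes were called, by limma at an adjusted p below 0.05. Of the 5, 1 had an unadjusted p below 0.05, Pou5f1, where 868 of all 10794 genes had one. Pou5f1 was at 21.3 and 19.8 FPKM in the knockout against 31.8 and 36.5 in the control, and the groups did not overlap. An exact permutation test of 2 against 2 libraries gives p = 0.33 for such a separation. Separation alone is therefore no sign of a change, here and below, and its share over all genes was not counted. Changes are given here as differences of log2(FPKM + 1) minus the median difference of all genes in the same contrast, and the tests were made on the unshifted differences. On that scale Pou5f1 differed by -0.66 (SE 0.22, adjusted p = 0.467). The other 4 tested factors differed by -0.14 to 0.15. Sall4 varied more within the knockout (14.5 and 35.2 FPKM) than between the group means.

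In full-grown oocytes 0 of 8 tested factors were called, beside 6.92% of 12199 genes. An unadjusted p below 0.05 was found for 2 of the 8 and for 3014 of the 12199 genes. Sall4, a factor needed in oocytes and in early embryos, was at 59.6 and 73.9 FPKM in the knockout against 125 and 91.9 in the control (change -0.50, SE 0.23, adjusted p = 0.0966), and without control replicate 1 or 2 that change was -0.24 or -0.76. Zfp42 was low in all 4 libraries, at 0.833 and 0.908 FPKM against 0.179 and 0.367 (0.75, SE 0.24, adjusted p = 0.182). The libraries of these factors and of Klf17 (161 and 191 against 159 and 151) did not overlap between genotypes, which alone is no sign of a change. Pou5f1 varied widely between the control libraries, 13.0 and 34.0 FPKM, and lay between those values in the knockout, 14.5 and 20.4. Oocyte markers summed to 19400 to 22900 FPKM in these knockouts and 24500 to 24600 in controls, and their part in these values was not tested. With 1 library each, the Dnmt3l pair allowed no test. Its order was Sall4 (470.2 FPKM in the control and 354 under the knockout label), Klf17 (68.0 and 86.6), Pou5f1 (17.3 and 11.7), Esrrb (6.96 and 5.41) and Klf4 (1.21 and 1.63). The remaining 5 factors were at or below 0.226 FPKM in both libraries of that pair.

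In zygotes 4 of 8 tested factors were called, 2 higher and 2 lower in the knockout, where 31.6% of all genes were called (18.5% higher, 13.1% lower). Esrrb, an orphan nuclear receptor, was at 8.73 and 11.01 FPKM in knockout zygotes against 4.50 and 1.38 in controls (1.56, SE 0.35, adjusted p = 0.00677). Sall4 was at 246 and 189.8 FPKM against 114 and 101 (0.99, SE 0.23, adjusted p = 0.00818). Every knockout library was above every control library for both factors. Both calls held without each library in turn, but without zygote control replicate 2 the Esrrb change was 0.97 (adjusted p = 0.0312).

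Both lower calls were lost without single libraries. Tfcp2l1, a partner of the naive pluripotency network, was at 0.967 and 1.12 FPKM in knockout zygotes against 2.11 and 3.30 in controls (-0.86, SE 0.23, adjusted p = 0.0193). Klf17, the most abundant factor, was at 305 and 222 FPKM against 379.8 and 435 (-0.65, SE 0.22, adjusted p = 0.0498). For neither factor did the groups overlap, but both calls were lost when zygote control replicate 2 or knockout replicate 2 was left out (Tfcp2l1 adjusted p = 0.112 and 0.0607, Klf17 adjusted p = 0.196 and 0.243). Klf17 was also lost without control replicate 1 (0.0959) and Tfcp2l1 without knockout replicate 1 (0.0644). Pou5f1 had control values of 66.2 and 29.0 FPKM and knockout values of 20.7 and 23.4, and its difference of -0.98 (SE 0.45) had an adjusted p of 0.124. Without control replicate 2 it was -1.55 (adjusted p = 0.043) and without control replicate 1 it was -0.44 (0.618). Klf4, Klf5 and Zfp42 overlapped between genotypes and were not called, and the Klf4 change went from -1.05 (adjusted p = 0.0257) without knockout replicate 1 to 0.05 (0.952) without knockout replicate 2. Summed FPKM of 10 oocyte marker genes was 17400 to 18100 in knockout zygotes and 7570 to 8400 in controls, with 7 of the 10 markers called higher. The part of that difference in the factors' values was not tested.

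From full-grown oocyte to zygote 3 of 8 factors were called in controls, beside 42.5% of all genes. Klf17 rose from 159 and 151 FPKM in full-grown oocytes to 379.8 and 435 in zygotes (1.45, SE 0.22, adjusted p = 0.000802), and Tfcp2l1 rose from 0.553 and 0.636 to 2.11 and 3.30 (1.26, SE 0.23, adjusted p = 0.00221). Esrrb fell from 8.96 and 9.86 to 4.50 and 1.38 (-1.46, SE 0.35, adjusted p = 0.00538), a change of -0.86 without zygote control replicate 2. Pou5f1 was at 13.0 and 34.0 in oocytes and 66.2 and 29.0 in zygotes (1.08, adjusted p = 0.0888), a change of 1.71 and 1.65 without replicate 2 of the oocytes or zygotes (adjusted p = 0.0237 and 0.0283) and of 0.44 and 0.54 without replicate 1 (0.602 and 0.525). In the knockout 1 of 8 was called, beside 17.7% of all genes. That factor was Sall4, which rose from 59.6 and 73.9 to 246 and 189.8 (1.60, SE 0.23, adjusted p = 0.00216), whereas control Sall4 was at 125 and 91.9 in oocytes and 114 and 101 in zygotes (0.06, adjusted p = 1). Knockout Esrrb was at 7.75 and 9.15 FPKM in oocytes and 8.73 and 11.01 in zygotes, and the Klf17 change was 0.76 (adjusted p = 0.0333) without zygote knockout replicate 2 and 0.18 (0.433) without replicate 1.

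The knockout effect in zygotes was tested against that in full-grown oocytes. Of 8 factors 1 was called, beside 9.39% of all genes. Sall4 differed by 1.49 (SE 0.32, adjusted p = 0.0105), from -0.50 in oocytes, where it was not called, to 0.99 in zygotes. The call was lost without knockout oocyte replicate 1 (1.41, adjusted p = 0.0598). Esrrb differed by 1.53 (SE 0.49, adjusted p = 0.0522), with 2.08 (adjusted p = 0.0101) without zygote control replicate 1 and 0.94 (0.0988) without control replicate 2. Without zygote knockout replicate 1 both Esrrb (adjusted p = 0.0467) and Klf17 (-1.28, adjusted p = 0.0397) were called, and over all leave-one-out fits the adjusted p was up to 0.185 for Esrrb and 0.333 for Klf17. FPKM is a share of each library's RNA, so a higher share of a stored message cannot be told apart from a loss of other RNA.

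**Figure D2:**
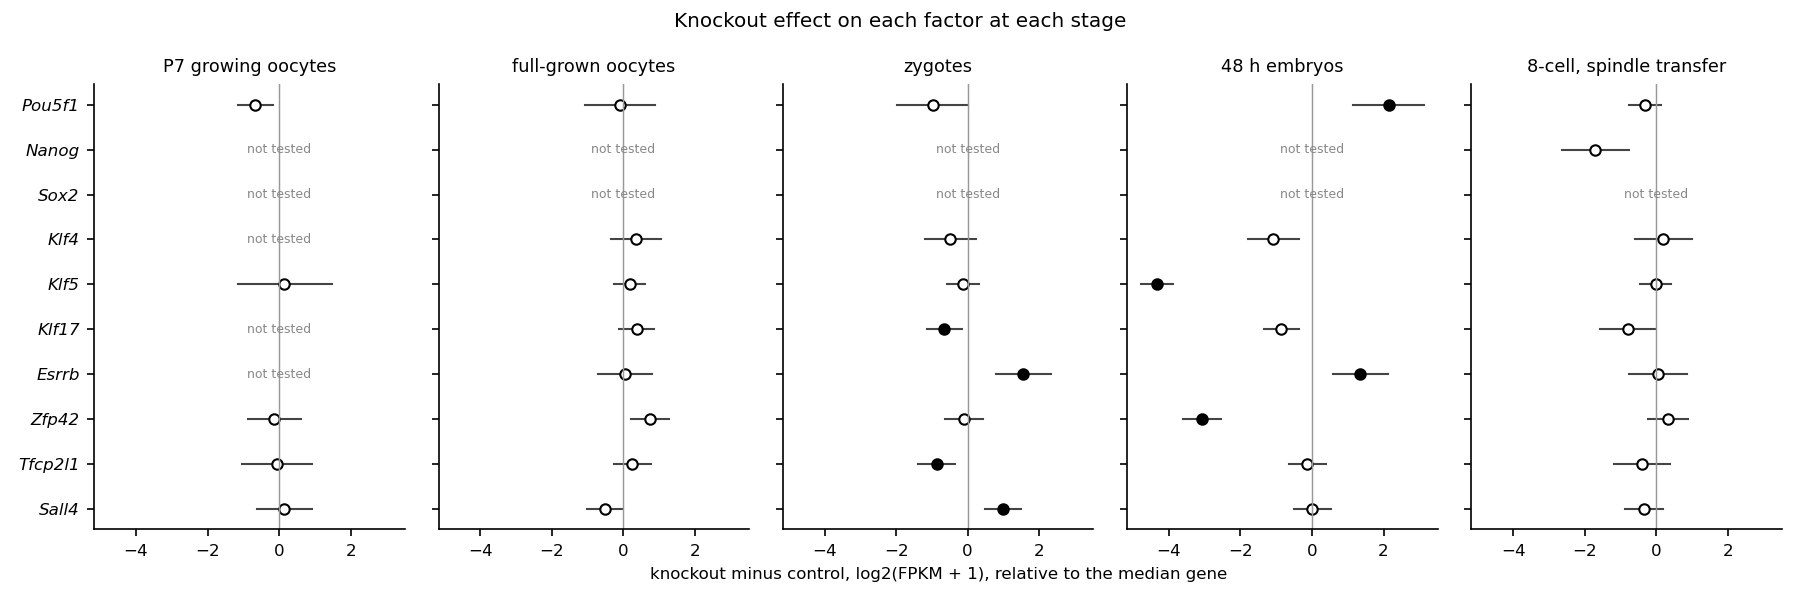
Knockout minus control for each factor at each stage, as a difference of log2(FPKM + 1) relative to the median gene. Bars are 95% confidence intervals, shifted by the same median. Filled points were called by limma on the unshifted differences at an adjusted p below 0.05, so an open point can have a bar clear of the vertical line. Factors under the low-value filter are marked as not tested. Filled points are seen in zygotes and at 48 h, where Klf5 and Zfp42 lie at -4.33 and -3.08 and Pou5f1 at 2.14.

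From zygote to 48 h 6 of 8 tested factors were called in controls, 4 higher and 2 lower, beside 76.1% of all genes (33.4% higher, 42.7% lower), so a high share of all genes changed in this step. Klf5, a factor of the inner cell mass and trophectoderm, rose from 0 and 0.382 FPKM to 15.4 and 14.3 (4.09, SE 0.20, adjusted p = 2.94e-08). Among full-grown oocytes, zygotes and 48 h embryos Klf5 reached 1 FPKM only in the 48 h controls. It therefore passed the low-value filter only through the group where it is high, and its tests in these stages carry that limit. Zfp42 rose from 0.657 and 1.09 to 11.9 and 9.18 (2.96, SE 0.24, adjusted p = 1.73e-06). Klf4 rose from 1.75 and 1.43 to 5.84 and 4.54 (1.59, SE 0.32, adjusted p = 0.0041). These 3 rises held under every alternative that could be run.

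Pou5f1 and Tfcp2l1 went the other way. Pou5f1 fell from 66.2 and 29.0 FPKM to 3.50 and 3.91 (-2.92, SE 0.45, adjusted p = 4.55e-05), and Tfcp2l1 fell from 2.11 and 3.30 to 0.854 and 0.287 (-0.91, SE 0.23, adjusted p = 0.000491), a change of -0.47 without 48 h control replicate 2. Sall4 rose from 114 and 101 to 161 in both libraries (0.92, SE 0.23, adjusted p = 0.0389 for the unshifted difference of 0.58). This call was lost whichever of the 4 control libraries was left out. Klf17 remained the most abundant factor, at 312 and 318 FPKM, and Esrrb was at 2.01 and 1.78, not called, with a change of -0.57 (adjusted p = 0.0125) without zygote control replicate 2 and 0.52 (0.391) without zygote control replicate 1. Nanog was listed at 0 in both control zygotes and at 0.578 and 2.10 at 48 h, values of about 4.2 and 18 fragments. Nanog did not reach the filter, and without a filter its rise was 1.15 (SE 0.26, adjusted p = 0.00628).

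Of the 6 factors called in this step, 4 have a promoter window in the RefSeq promoter table (build GRCm38.p6), and their sequences are shown because their RNA rose (Zfp42, Klf4) or fell (Pou5f1, Tfcp2l1) in the same embryos. Klf5 and Sall4 have no entry. Each line gives the 250 bases before an annotated start site, 5′ to 3′ on the gene's strand, with matches to the motifs listed after them in capitals. For Pou5f1 the first of its 2 windows is shown.
Zfp42, chr8:43307010-43307259, minus strand: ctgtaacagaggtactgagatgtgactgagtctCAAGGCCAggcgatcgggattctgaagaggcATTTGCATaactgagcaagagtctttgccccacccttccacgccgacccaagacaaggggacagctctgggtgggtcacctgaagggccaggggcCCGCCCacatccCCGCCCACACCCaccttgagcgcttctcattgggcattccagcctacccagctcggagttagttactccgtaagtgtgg
Klf4, chr4:55532476-55532725, minus strand: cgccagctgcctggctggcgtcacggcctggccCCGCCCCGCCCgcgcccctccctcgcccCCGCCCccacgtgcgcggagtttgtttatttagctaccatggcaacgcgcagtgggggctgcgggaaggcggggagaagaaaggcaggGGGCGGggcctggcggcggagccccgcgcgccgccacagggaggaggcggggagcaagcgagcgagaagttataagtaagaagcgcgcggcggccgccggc
Pou5f1, chr17:35505782-35506031, plus strand: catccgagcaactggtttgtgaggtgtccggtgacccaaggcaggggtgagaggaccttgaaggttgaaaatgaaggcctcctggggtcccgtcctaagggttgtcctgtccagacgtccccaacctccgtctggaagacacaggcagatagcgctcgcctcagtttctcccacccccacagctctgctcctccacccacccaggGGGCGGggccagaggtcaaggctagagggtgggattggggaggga
Tfcp2l1, chr1:118627695-118627944, plus strand: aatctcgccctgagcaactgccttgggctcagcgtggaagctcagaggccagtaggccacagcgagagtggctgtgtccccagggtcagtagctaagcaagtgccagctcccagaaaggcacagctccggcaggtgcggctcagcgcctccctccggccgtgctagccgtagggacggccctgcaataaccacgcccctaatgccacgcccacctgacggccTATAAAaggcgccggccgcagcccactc

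Searched on both strands were 6 motifs, the octamer ATGCAAAT of POU factors, the SOX core CATTGT, the KLF site CACACCC, the GC box GGGCGG, the site CAAGGNCA of Esrrb and Nr5a2, and the TATA box TATAAA. Zfp42 held the octamer on the minus strand at positions -186 to -179 counted from the start site, and 1.6% of all 32851 windows held an octamer. It held the Esrrb and Nr5a2 site at -217 to -210 (5.53% of windows), the KLF site at -74 to -68 (6.93%) and 2 GC boxes (32.7%), of which the one at -79 to -74 shares a base with the KLF site. Klf4 held 4 GC boxes, and a pair of them overlap by a base at -217 to -207. The Pou5f1 window held 1 GC box at -45 to -40. Tfcp2l1 held the TATA box at -28 to -23 (12.4% of windows). A match of letters describes the sequence and does not show that a factor binds there.

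In the knockout step from zygote to 48 h 0 of 8 factors were called by limma, beside 0.205% of all genes. An unadjusted p below 0.05 was found for 1 factor and for 1240 of all 12199 genes. That factor was Klf4, at 2.92 FPKM in both 48 h libraries against 1.68 and 0.297 in zygotes (1.05, SE 0.32, adjusted p = 0.285). Klf5 was at 0 and 0.124 FPKM at 48 h, of which the second is about 2 fragments, and Zfp42 was at 0.725 and 0.945. Pou5f1 was at 32.8 and 22.1, Esrrb at 8.22 and 9.73, Sall4 at 252 and 190.2 and Klf17 at 279.6 and 195. Klf4 did not overlap between the zygote and 48 h knockout libraries, which alone is no sign of a change.

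**Figure D3:**
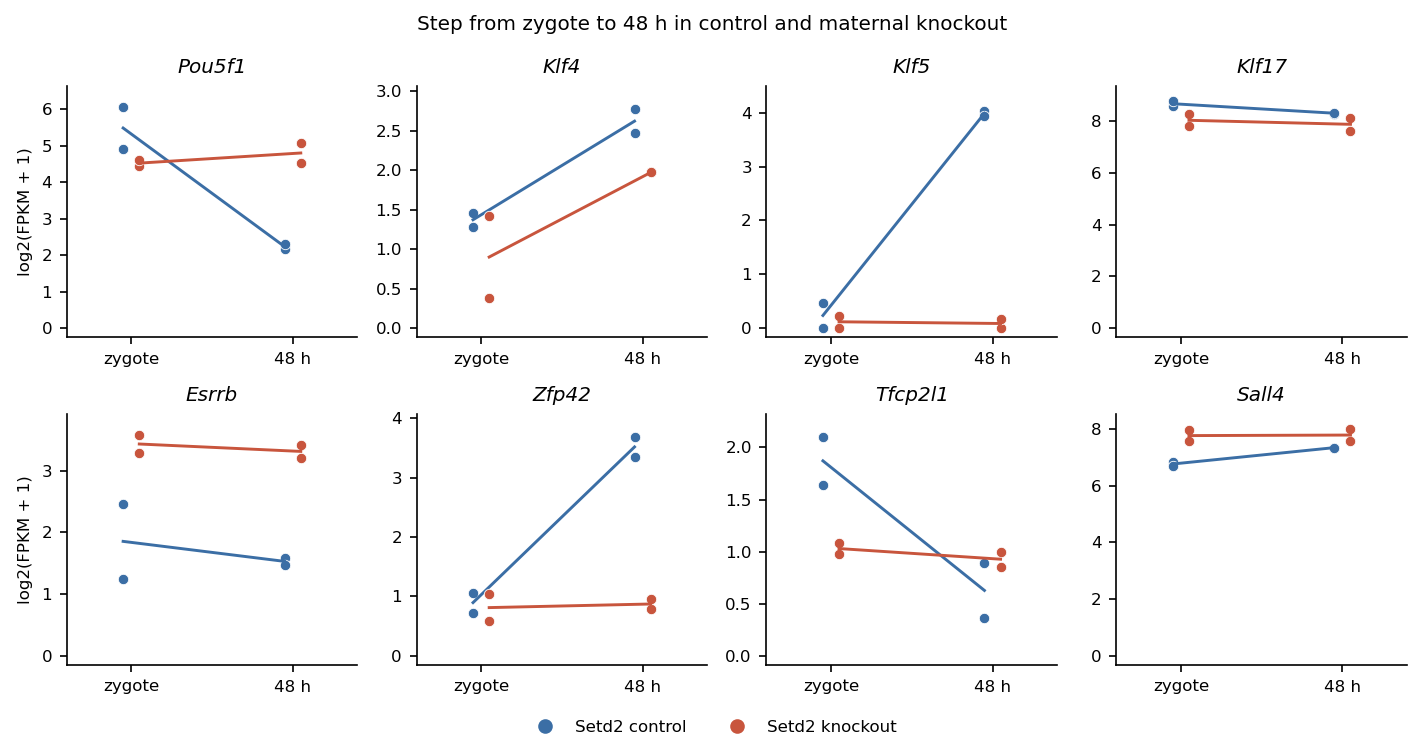
Levels in zygotes and at 48 h on a scale of log2(FPKM + 1) that differs between panels. Points are libraries, lines join the means of 2 libraries, blue is control and red is the maternal Setd2 knockout. In controls Klf5 and Zfp42 climb and Pou5f1 drops, while the red lines of these 3 factors stay near their zygote level.

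Compared at 48 h, 4 of 8 factors were called between genotypes, 2 higher and 2 lower in the knockout, beside 73.8% of all genes (43.2% higher, 30.6% lower). Klf5 was lower in the knockout by 4.33 on the log2 scale (SE 0.20, adjusted p = 2.62e-08), with 0 and 0.124 FPKM against 15.4 and 14.3, and Zfp42 had a change of -3.08 (SE 0.24, adjusted p = 2e-06). Klf5 passed the low-value filter only through the 48 h controls and has no value when either of them is left out. Pou5f1 was higher, 32.8 and 22.1 FPKM against 3.50 and 3.91, a ratio of means of 7.4 (2.14, SE 0.45, adjusted p = 0.000318). Esrrb was also higher, with a ratio of 4.74 (1.35, SE 0.35, adjusted p = 0.000729). All 4 calls held under each alternative that gave them a value.

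The other 4 tested factors were not called at 48 h. In this contrast the median difference of all genes was 0.431, and the adjusted p-values belong to the unshifted differences. Those were -0.65 for Klf4, -0.43 for Klf17, 0.44 for Sall4 and 0.30 for Tfcp2l1, so for Tfcp2l1 the sign differs from the shifted value. Klf4 was at 2.92 FPKM in both knockouts against 5.84 and 4.54 (-1.08, adjusted p = 0.0876), Klf17 at 279.6 and 195 against 312 and 318 (-0.86, adjusted p = 0.104), Sall4 at 252 and 190.2 against 161 in both controls (0.01, adjusted p = 0.101), and Tfcp2l1 at 0.809 and 0.999 against 0.854 and 0.287 (-0.13, adjusted p = 0.261). Klf4 passed after median-ratio rescaling (adjusted p = 0.011) and quantile normalization (0.0183), and Klf17 after median-ratio rescaling (0.00551) and without 48 h knockout replicate 1 (-1.12, adjusted p = 0.0317), but its change was -0.53 (0.559) without knockout replicate 2. Nanog was at 0 and 0.0327 FPKM in the knockout and Sox2 at 0 and 0.251, against 0 in both controls for Sox2. The values above 0 equal about 0.35 of a fragment for Nanog and 2.5 fragments for Sox2. Without a filter Nanog differed by -1.16 (SE 0.26, adjusted p = 0.00764).

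The effect at 48 h was tested against the effect in zygotes, and 4 of 8 factors were called, beside 66.2% of all genes. Pou5f1 differed by 3.17 (SE 0.63, adjusted p = 0.000531), from -0.98 in zygotes, where it was not called, to 2.14 at 48 h. Klf5, which passed the filter only through the 48 h controls, differed by -4.15 (SE 0.28, adjusted p = 1.17e-06) and Zfp42 by -2.93 (SE 0.34, adjusted p = 6.36e-05). Tfcp2l1 differed by 0.78 (SE 0.33, adjusted p = 0.0101), a call lost without 48 h control replicate 2 (0.34, adjusted p = 0.0864), and by 0.51 without zygote control replicate 2. Esrrb, higher in the knockout at both times, differed by -0.16 (unshifted difference 0.20, with a 95% interval of -0.88 to 1.29, adjusted p = 0.729).

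Stage markers differed between the genotypes as well. At 48 h the 10 oocyte markers summed to 15900 to 18800 FPKM in the knockout and 276 to 309 in controls, and all 10 were called higher. Of 7 tested 2-cell markers 6 were called lower, with sums of 6.25 to 32.2 against 135 to 172 FPKM. The controls are labelled 2-cell and the knockouts 1-cell, so these calls are no separate support for the factors' results. Among these markers Tdpoz1 passed the low-value filter only through the 48 h controls. It averaged 28.6 FPKM there and 0.0207 to 0.224 in the other groups fitted with them. This was not counted for the other markers. Granulosa and cumulus cell markers, from the cells around the egg, summed to 19.7 to 22.9 FPKM in the knockout and 0.192 to 0.463 in controls at 48 h. They summed to 29.2 to 35.8 in full-grown oocytes of both genotypes, and in zygotes to 19.3 to 24.2 in the knockout and 13.8 to 20.6 in controls. Of these 12 markers 4 were tested, and 2 were called higher in the knockout at 48 h. Their part in the factors' values was not tested. In bulk samples, fewer cells of a type and less RNA per cell cannot be told apart.

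At 48 h 73.8% of all genes were called (43.2% higher, 30.6% lower), and the counts of further network genes and relatives are to be read against that share. Their medians are relative to the median gene. Some of the genes named below were near 0 FPKM in the 48 h knockout, such as Prdm14, Fgf4, L1td1, Klf9 and Tead4. Which of them passed the low-value filter only through the 48 h controls was not counted, so their tests may carry the limit given for Klf5. Among 15 tested further transcription factors 3 were higher and 9 lower in the knockout (80% called, median -1.47). Zfp281, a zinc finger partner of Nanog and Oct4, was at 4.14 ± 0.626 FPKM against 49.3 ± 3.59 (adjusted p = 1.07e-06). Prdm14, a repressor of differentiation genes, was at 0.239 ± 0.109 against 4.69 ± 1.07 (adjusted p = 1.53e-06). Gbx2, a homeobox target of LIF signalling, was at 50.5 ± 10.6 against 2.47 ± 0.365 (adjusted p = 1.29e-06). In the control step from zygote to 48 h, 10 of these 15 rose and 3 fell (86.7% called, beside 76.1% of all genes), with Nr5a2, a nuclear receptor of the early embryo, rising from 3.75 ± 0.865 to 35.4 ± 2.06 FPKM (adjusted p = 6.3e-07). In the knockout step limma called 0 of these 15, of which 2 had an unadjusted p below 0.05, and 0 of 91 tested genes of all the lists described here, of which 13 had one. Of all 12199 genes 1240 had one in that step.

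Signalling genes moved both ways. Of 20 tested ligands, receptors and kinases 9 were higher and 4 lower in the 48 h knockout (65% called, median 0.10). The ligand Fgf4, a target of Oct4 and Sox2, was at 0 FPKM in both knockout libraries against 8.89 ± 0.683 in controls (adjusted p = 2.03e-08). The kinase Mapk3 (ERK1) was at 149 ± 0.915 against 5.16 ± 0.681 (adjusted p = 3.68e-08), and Gdf3, a TGF-beta ligand, at 0.352 ± 0.218 against 6.22 ± 1.21 (adjusted p = 5.01e-07). Of 24 chromatin regulators and cofactors 5 were higher and 9 lower (58.3% called, median -0.90). They included the RNA-binding protein L1td1 (0.0689 ± 0.0974 against 15.1 ± 2.22, adjusted p = 1.08e-08), the remodeller Chd1 (2.81 ± 0.865 against 27.6 ± 0.547, adjusted p = 1.41e-06) and Smarca4 (Brg1), the ATPase of the SWI/SNF complex (2.89 ± 1.05 against 29.6 ± 2.79, adjusted p = 5.88e-06).

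Relatives of the factors were not alike. Of 8 further tested KLF genes 3 were higher and 5 lower in the 48 h knockout (median -1.45). Klf9 was at 0.217 ± 0.217 FPKM against 8.79 ± 0.923 (adjusted p = 8.65e-08) and Klf7 at 20.9 ± 0.814 against 1.90 ± 0.270 (adjusted p = 2.45e-06). Among 5 SOX genes 2 were higher and 2 lower (80% called, median -1.14), and among 6 POU genes 2 were higher and 2 lower (66.7% called, median -0.68). Of 9 relatives of Esrrb, Tfcp2l1, Zfp42 and Sall4, 3 were higher and 5 lower (88.9% called, median -1.75), and Yy2, a relative of Zfp42, was at 14.5 ± 2.05 against 92.9 ± 6.05 (adjusted p = 1.99e-06). Lineage factors that act beside the network split 3 higher and 3 lower of 7 (85.7% called, median -0.39). Tead4, which directs the trophectoderm, was at 0.138 ± 0.194 against 17.7 ± 4.47 FPKM (adjusted p = 2.85e-08), and Gata3, another trophectoderm factor, at 7.54 ± 0.300 against 0.898 ± 0.620 (adjusted p = 7.43e-05).

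In spindle-transfer 8-cell embryos every factor but Sox2 was at or above 4.07 FPKM in all 4 libraries. In the Setd2+/- label Sall4 led (546 and 415 FPKM), then Klf5 (140 and 135), Pou5f1 (132 and 117), Nanog (132 and 52.2), Zfp42 (66.5 and 49.6), Tfcp2l1 (42.2 and 25.2), Klf17 (27.9 and 31.4), Klf4 (5.59 and 8.36) and Esrrb (4.24 and 4.46). Pou5f1 with Nanog, Nanog with Zfp42, and Tfcp2l1 with Klf17 overlapped. Sox2, which is known to rise later in the inner cells, was at 0 in both Setd2+/- libraries and at 0.177 and 0 in the others. Klf17 lay below Klf5 here and above it at 48 h, but these tables may have been normalized separately and the change was not tested.

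Between the labels 0 of 9 tested factors were called, beside 0% of all 9398 genes, of which 1243 had an unadjusted p below 0.05. Of the 9 factors 2 had one, Nanog and Klf17. Nanog was at 24.4 and 22.6 FPKM under the knockout label against 132 and 52.2 (-1.70, SE 0.40, adjusted p = 0.216), a ratio of means of 0.256. Leaving out control replicate 2 gave -2.35 for Nanog (adjusted p = 0.0276), the one factor then called, beside 29 of 8986 genes. Leaving out control replicate 1 gave -1.04 (adjusted p = 0.203), and over the leave-one-out fits the adjusted p was up to 0.727. Control replicate 2 stood apart in 2-cell markers, with a sum of 115 FPKM against 11.8 in control replicate 1 and 11.1 to 23.1 under the knockout label, and its part in the Nanog values was not tested. Oocyte markers summed to 55.4 to 68.5 FPKM under the knockout label and 25.6 to 36.5 in controls, and their part was not tested either. Klf17 was at 11.6 and 21.4 FPKM against 27.9 and 31.4 (-0.79, SE 0.33, adjusted p = 0.337), with -0.37 and -1.21 without knockout replicate 1 and 2, and Pou5f1 at 91.5 and 98.7 against 132 and 117 (-0.31, SE 0.19, adjusted p = 0.427). Nanog, Klf17 and Pou5f1 did not overlap between labels, which alone is no sign of a change. Klf5 overlapped, at 136 and 122 against 140 and 135 (95% interval of the unshifted difference -0.52 to 0.34).

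**Figure D4:**
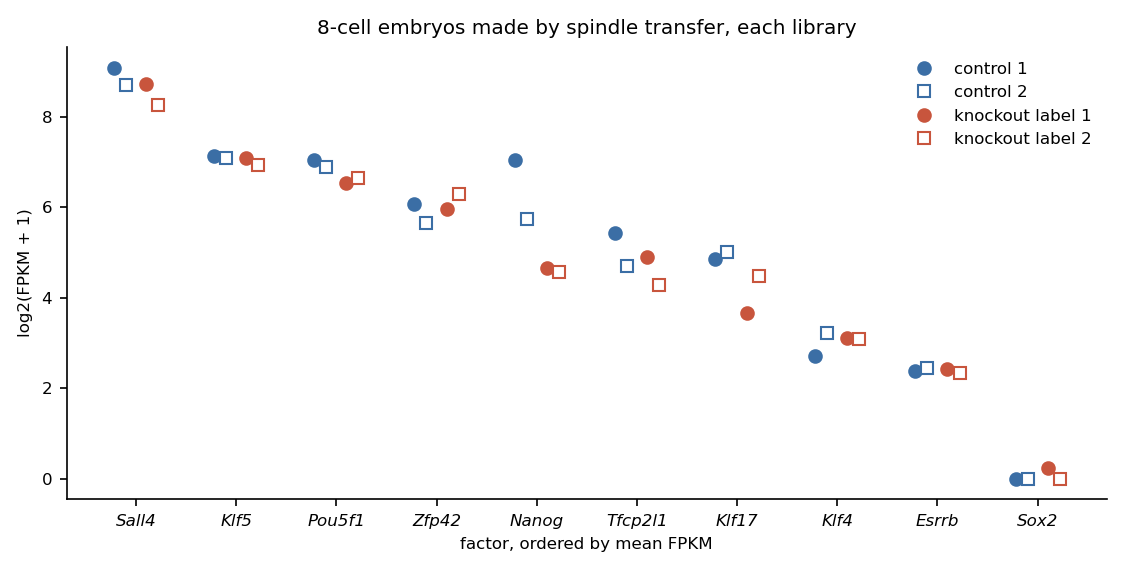
Levels of the 10 factors in spindle-transfer 8-cell embryos on a scale of log2(FPKM + 1), ordered by mean FPKM. Each point is a library, circles are replicate 1 and open squares replicate 2, blue is the control label and red the knockout label. Nanog (24.4 and 22.6 FPKM under the knockout label against 132 and 52.2) shows the widest gap between labels.

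For 7 factors with a group mean of at least 5 FPKM in the table of 12 libraries, the genes of most similar pattern were ranked by Pearson correlation of log2(FPKM + 1) over the 12 libraries, among 8884 genes. The 12 points share 6 groups, so these values describe the stages and carry no test. Klf5 was closest to Tdpoz1 (0.999), Calcoco2 (0.999) and Zfp874b (0.998). Klf5 and these genes averaged at most 0.239 FPKM in the other groups and were high only in the 48 h controls. Genes high in that group alone correlate closely whatever their relation, which was not tested. Pou5f1 was closest to Arpc1b (0.978), Fam46b (0.977) and Aph1a (0.970). Zfp42 ran with Wsb1 (0.989), Tmem41b (0.989) and Zfp949 (0.984), Esrrb with Adora2b (0.977), Zglp1 (0.964) and Nagk (0.964), and Klf17 with genes that included Otud4 (0.945) and Arnt (0.943). The highest values for Klf4 (AA465934 at 0.917, Malat1 at 0.911 and Polr2a at 0.910) and Sall4 (a transcript without a gene symbol at 0.919, Ube3a at 0.908 and Cdc27 at 0.885) were lower.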

How the data were processed

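The authors deposited FPKM values in 4 tables, made by a pipeline whose notes name TopHat2 2.0.11, Cufflinks 2.0.2 and mm9, per the submitters' processing notes. No counts were used. Libraries were grouped by their titles. Values were transformed as log2(FPKM + 1), and limma 3.58.1 in R 4.3.3 tested genes that reached 1 FPKM in 2 or more of a table's libraries, fitting group means with an abundance-dependent prior variance. The 12 libraries of full-grown oocytes, zygotes and 48 h embryos were fitted together, growing oocytes and 8-cell embryos each alone, and tests were made only within a table. Two-sided p-values were adjusted over all genes of a contrast by the Benjamini-Hochberg method and called at 0.05. An exact permutation test of 2 against 2 cannot go below p = 0.33, so calls rely on variance shared between genes.

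Changes are given minus the median of all genes, since rescaling moved that median by over 0.1. Depth was estimated from FPKM times length of 2834 genes with a single transcript in GENCODE vM21. Nanog and Zfp42 have known pseudogene copies, whose reads may be split with them, and exons of Pou5f1, Sall4 and Tfcp2l1 overlap other annotated genes, so their values are uncertain to that extent. Promoters come from RefSeq (8 of 10 factors matched). The pipeline was tested on simulated data in which 200 of the better expressed genes were changed 4-fold. It recovered 60% of them in the 8-cell contrast, 69% in growing oocytes and 87% in full-grown oocytes. For the difference of knockout effects it recovered 61.5% (zygotes minus full-grown oocytes) and 66.5% (48 h minus zygotes). A lack of calls in 8-cell embryos, in growing oocytes and for these differences is to be read with that lower recovery. Changes smaller than 4-fold were not simulated, so the recovery of smaller differences is not known. The members and lists were chosen with earlier results of these data known. All 10 factors are reported, with up to 3 called genes of smallest adjusted p per further list. Alternatives were another pseudocount, other filters, other scalings, no variance trend, a replicate block, fewer groups in the fit and each library left out. A gene of similar pattern to Klf17 is not reported here.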

Additional observations from a re-analysis of the deposited data

Results flagged for a closer look

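In 5 cases the knockout effect on a factor differed between stages by limma's test of the difference itself. For Sall4, the knockout effect in zygotes minus that in full-grown oocytes was 1.49 (adjusted p = 0.0105). Between 48 h and zygotes, Pou5f1 differed by 3.17 (adjusted p = 0.000531), Klf5 by -4.15 (1.17e-06), Zfp42 by -2.93 (6.36e-05) and Tfcp2l1 by 0.78 (0.0101). Klf5 passed the low-value filter only through the 48 h controls. The 48 h differences set 1-cell knockouts beside 2-cell controls, so genotype and cell stage cannot be told apart there.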

How the results depend on the processing

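Of 23 called changes of the factors, 18 stayed called in the same direction under every alternative that could be run. Of 285 alternative values of the 23, 261 stayed called, 24 were lost and 0 were reversed, and 25 of 752 alternative values of 63 uncalled changes were called. Besides the losses by single libraries given with the results, Klf17 in zygotes lost its call with log2(FPKM + 0.1), with no filter, with no trend and in the fit of its own groups (adjusted p = 0.0565 to 0.121), Tfcp2l1 in zygotes with log2(FPKM + 0.1) and in that fit (0.0822 and 0.103), Sall4 in the control step to 48 h with no filter, no trend and quantile normalization (0.052 to 0.462), and the Sall4 difference between zygotes and oocytes with quantile normalization (0.0522). The cause was not tested.

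In numbers of called factors, the fit of only the groups compared gave 1 in full-grown oocytes (Sall4), beside 2787 of 10081 genes (27.6%) in place of 844 of 12199, and 2 in zygotes, beside 25.9% of genes, and log2(FPKM + 0.1) gave 2 in zygotes. Quantile normalization gave 6 in the control step from oocyte to zygote and 0 for the difference between zygotes and oocytes, for which the filter of 5 FPKM and no trend each gave 2. Leaving out 1 library gave 2 to 4 called in zygotes, 0 to 1 in 8-cell embryos, 1 to 2 in the knockout step from oocyte to zygote, 0 to 3 for the difference between zygotes and oocytes and 2 to 4 for that between 48 h and zygotes. Factors under a filter without 1 library have no value there.

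The replicate numbers were not treated as pairs: deviations of same-numbered libraries correlated at 0.00244 to 0.186 by stage. With the replicate block 3 factors were called in zygotes and 5 in the control step to 48 h, since Klf17 (adjusted p = 0.0784) and Sall4 (0.0531) were lost, and the other 9 counts stayed as reported. Over all genes the replicate block gave 129 calls against 9 in growing oocytes, 15 against 0 in 8-cell embryos and 4 against 25 in the knockout step to 48 h.

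Over all genes, leaving out 1 library gave 5 to 16 calls against 9 in growing oocytes, 43 (without knockout replicate 1) to 145 against 844 in full-grown oocytes, 2256 (without knockout replicate 2) to 3935 against 3850 in zygotes, and 0 to 49 (without control replicate 1) against 0 in 8-cell embryos. In the steps from oocyte to zygote it gave 3146 (without oocyte control replicate 2) to 4322 against 5190 in controls and 313 (without oocyte knockout replicate 1) to 2885 against 2154 in the knockout. It gave 11 to 172 (without zygote knockout replicate 2) against 25 in the knockout step to 48 h, and 320 (without oocyte control replicate 2) to 1964 against 1145 for the difference between zygotes and oocytes. Median-ratio rescaling moved the median of all genes from 0.431 to 0.12 at 48 h and from -0.188 to -0.0263 in full-grown oocytes, where higher and lower calls went from 247 and 597 to 391 and 323. Values under 1 FPKM can rest on few fragments, the fewer the lower the depth and the shorter the transcript.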
